A study of Mus musculus with 5 samples.

Results

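The genes described here are 10 members of the pathway that degrades tryptophan and of the aryl hydrocarbon receptor (AHR) pathway, which tryptophan products can activate, among 27678 gene symbols in the deposited table. The rule is a list of symbols: Ido1, Ido2 and Il4i1, whose enzymes act on tryptophan, Kmo and Kynu, whose enzymes act on kynurenine, the receptor gene Ahr, the genes of its partner Arnt and its repressor Ahrr, and the target genes Tiparp and Cyp1b1. RNA-seq was compared between 3 libraries from Etv3-/- mice and 2 libraries from Etv3+/+ mice, all from sorted dendritic cells of bone marrow cultured over 6 days in 20 ng/ml GM-CSF plus 5 ng/ml IL-4. Sorted cells were CD11c+, CD11b intermediate, MHC class II high and CD115-. The labels give neither the age of the mice, the part of Etv3 that was disrupted, nor whether replicates came from separate mice, so each p-value reflects spread among libraries that may be technical. The ETS-family factor that Etv3 encodes binds DNA, and the question is which transcripts differ in dendritic cells that lack it.

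Dendritic cells that express IDO1 convert tryptophan to N-formylkynurenine, which AFMID turns into kynurenine. Loss of tryptophan and gain of kynurenine are known to restrain T cells, and IDO1 is studied in dendritic cells for that reason. Kynurenine is used by KMO, which makes 3-hydroxykynurenine, by KYNU, which cleaves kynurenine and 3-hydroxykynurenine, and by aminotransferases that make kynurenic acid. HAAO then acts on 3-hydroxyanthranilate, a step towards NAD. Kynurenine, kynurenic acid and indoles formed after IL4I1 has acted on tryptophan are AHR ligands. AHR binds DNA together with ARNT at a xenobiotic response element with the core GCGTG, and its targets include genes that limit its own activity.

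Promoter sequences are shown for the 3 AHR target genes among the members and for Kmo, the member with the largest fold change. They are the 250 bases before the RefSeq start of each gene, build GRCm38.p6, written 5′ to 3′ on the strand of the gene, with capitals for the AHR core GCGTG and for the ETS site CCGGAA on either strand.
Ahrr, chr13:74292332-74292581, minus strand: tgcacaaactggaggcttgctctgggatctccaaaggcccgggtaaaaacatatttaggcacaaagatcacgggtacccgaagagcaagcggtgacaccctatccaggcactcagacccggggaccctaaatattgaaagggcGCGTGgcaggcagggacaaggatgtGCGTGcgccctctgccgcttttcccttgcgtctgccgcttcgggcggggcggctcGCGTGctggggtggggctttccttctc
Tiparp, chr3:65528197-65528446, plus strand: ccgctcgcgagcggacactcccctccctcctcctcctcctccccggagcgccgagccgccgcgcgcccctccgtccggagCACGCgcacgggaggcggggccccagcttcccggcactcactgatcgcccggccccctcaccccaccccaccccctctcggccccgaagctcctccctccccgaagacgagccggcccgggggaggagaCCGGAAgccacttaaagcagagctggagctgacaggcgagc
Cyp1b1, chr17:79715062-79715311, minus strand: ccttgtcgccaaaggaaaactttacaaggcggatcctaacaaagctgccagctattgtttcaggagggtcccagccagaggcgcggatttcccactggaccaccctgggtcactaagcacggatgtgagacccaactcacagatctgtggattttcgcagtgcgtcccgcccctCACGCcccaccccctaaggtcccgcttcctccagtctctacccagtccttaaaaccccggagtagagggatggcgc
Kmo, chr1:175631943-175632192, plus strand: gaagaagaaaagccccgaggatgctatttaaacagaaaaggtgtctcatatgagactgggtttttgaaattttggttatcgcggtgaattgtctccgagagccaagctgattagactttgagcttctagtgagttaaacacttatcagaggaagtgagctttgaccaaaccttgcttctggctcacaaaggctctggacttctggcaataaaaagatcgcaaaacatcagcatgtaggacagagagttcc
The search covered both strands, so CACGC and TTCCGG also counted, and these motifs do not share letters. Of the 10 members, 6 had a promoter entry, and 4 of these 6 held the AHR core, namely Ahrr, Tiparp, Cyp1b1 and Arnt. Among 32851 promoter windows of the same length 28.2% held it. Ahrr held 3 copies, while Tiparp, Cyp1b1 and Arnt held 1 each. The ETS site was found in Tiparp alone among the 6, and in 12% of all windows. The RefSeq start of Kmo lies inside the gene body that GENCODE M21 gives, as does that of Il4i1, so their windows do not describe the bases before the GENCODE start. The windows of Tiparp and Arnt run past the GENCODE starts of these genes. A match describes letters in a window and is no evidence of binding.

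Depth, recovered as whole reads, was 42983550 to 59694413 reads in Etv3-/- libraries and 56445754 to 68253936 in Etv3+/+ libraries. Etv3 itself had 18691, 20416 and 22856 normalized counts in Etv3-/- libraries, against 23050 and 25447 in Etv3+/+ libraries, so gene-level totals do not check the labels, and genotypes are as labelled. Of the genes behind the sort gate, Itgax, which encodes CD11c, had 10505 to 16076 normalized counts in Etv3-/- and 9808 and 10549 in Etv3+/+ libraries. Itgam, which encodes CD11b, had 1637 to 1855 in Etv3-/- and 709 and 726 in Etv3+/+ libraries (limma adjusted p = 0.0635). The MHC class II gene H2-Ab1 had 606099 to 870214 in Etv3-/- and 193338 and 300904 in Etv3+/+ libraries (limma adjusted p = 0.0949), and H2-Eb1 had 205909 to 298949 in Etv3-/- and 70848 and 86125 in Etv3+/+ libraries (limma adjusted p = 0.0542). Csf1r, which encodes the CD115 used for exclusion, had 2403 to 3493 in Etv3-/- and 1018 and 1348 in Etv3+/+ libraries (limma adjusted p = 0.0683). DESeq2 called Itgam, H2-Ab1, H2-Eb1 and Csf1r higher in Etv3-/- cells (adjusted p under 0.05), and not Itgax. edgeR called H2-Eb1 alone of these genes (adjusted p = 0.0418). A pair of libraries, 1 of each genotype, stood apart in composition. Deviations of gene values from their mean over the 5 libraries correlated with GC content across genes with a Spearman rho of 0.41 in Etv3-/- replicate 3 and -0.42 in Etv3+/+ replicate 2, against -0.10 to 0.09 in the others. Mitochondrial genes took 1.10% to 3.17% of normalized counts in Etv3-/- libraries, and 1.98% and 6.64% in Etv3+/+ libraries. In bulk RNA, fewer cells that express a gene and less RNA per cell cannot be told apart.

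No member passed the test. Kmo averaged 1295 normalized counts in Etv3-/- and 68.0 in Etv3+/+ cells, and Ido1 averaged 133 in Etv3-/- and 319 in Etv3+/+ cells, without a call for either. All 10 members passed the filter on low values. With limma on log2(normalized count + 1), adjusted over 13813 tested genes, 0 of 10 were called, where 1.19% of all genes were. At an unadjusted p under 0.05 there were 3 members, Kmo higher and Ido1 and Cyp1b1 lower, where 18.0% of all genes passed, 8.02% higher and 9.93% lower. edgeR and DESeq2 on recovered reads also called 0 of 10, where edgeR called 1.14% of all genes (0.825% higher and 0.319% lower) and DESeq2 8.60% (4.66% higher and 3.94% lower). Values of the genotypes did not overlap for 3 members, Kmo, Ido1 and Ido2, which is 30.0% of them, below the 36.0% of all tested genes, so the count is no result about the members. The median log2 fold change was 0.11 over the members and -0.06 over all tested genes.

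**Figure D1:**
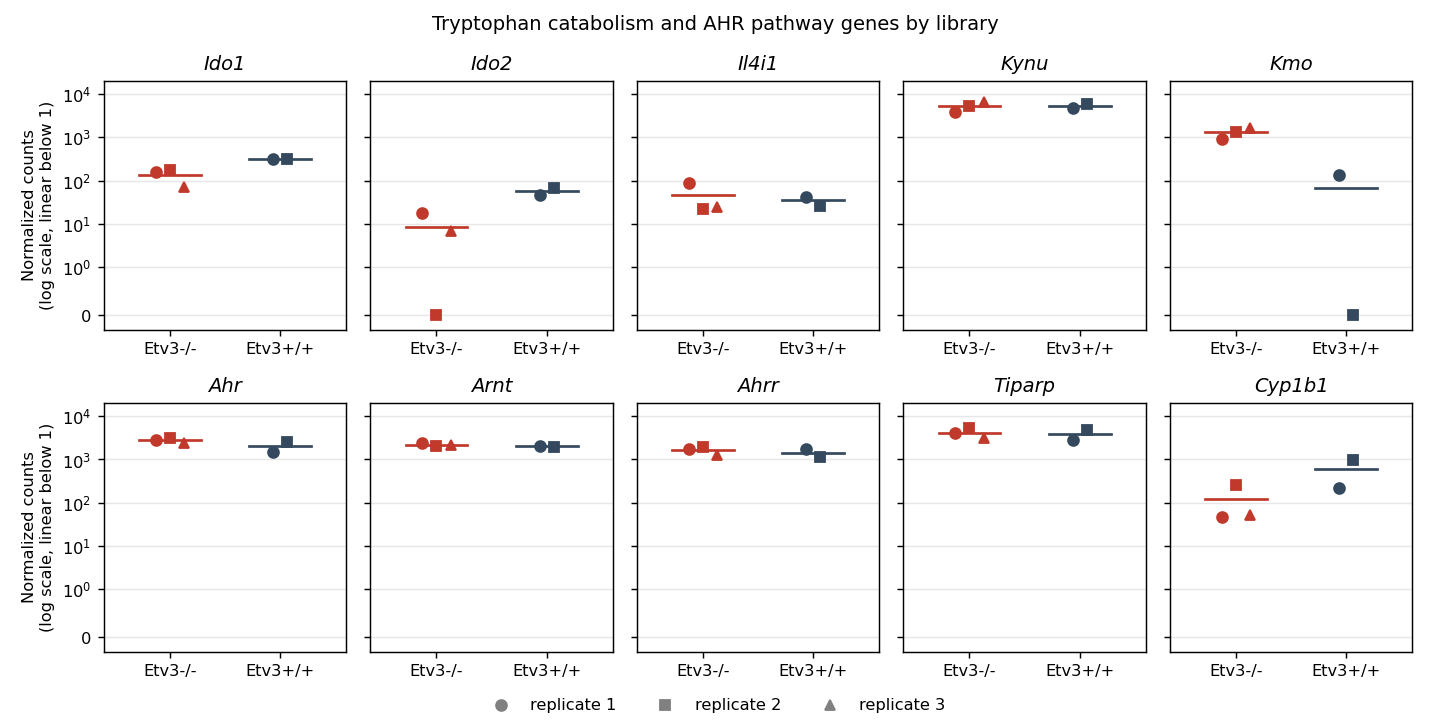
Normalized counts of the 10 members in each library, on an axis that is logarithmic above 1 and linear below, with Etv3-/- libraries in red, Etv3+/+ libraries in dark grey, marker shapes for replicate numbers and a bar at each group mean. Kmo lies at 902 to 1650 in Etv3-/- libraries, against 136 and 0 in Etv3+/+ libraries, while Kynu, Arnt, Ahrr and Tiparp overlap.

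Ido1, the inducible enzyme that opens the tryptophan ring, was the more abundant of the paired dioxygenase genes in every library. Ido1 lies on the minus strand of chromosome 8 (24584136 to 24597009, GRCm38). It had 155, 172 and 71.9 normalized counts in Etv3-/- replicates 1, 2 and 3, against 316 and 323 in Etv3+/+ replicates 1 and 2. All Etv3-/- libraries were below both Etv3+/+ libraries, and the Etv3+/+ pair was nearly equal. These values rest on 82 to 144 reads in Etv3-/- and 339 and 377 in Etv3+/+ libraries. The mean was 133 ± 53.6 (SD, n = 3) in Etv3-/- and 319 ± 4.72 (SD, n = 2) in Etv3+/+ cells. The log2 fold change was -1.35 (SE 0.57, 95% interval -2.69 to -0.02), with a limma unadjusted p of 0.0473 and an adjusted p of 0.273.

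Ido2, a paralogue whose enzyme is known for weak activity on tryptophan, lies beside Ido1 on chromosome 8 (24531892 to 24576333). It had 18.3, 0 and 7.02 normalized counts in Etv3-/- replicates 1, 2 and 3, against 46.6 and 65.9 in Etv3+/+ libraries. The groups did not overlap, and the signal was near the limit of detection in Etv3-/- cells, with 17, 0 and 8 reads, against 50 and 77 reads in Etv3+/+ libraries. The count of 0 in Etv3-/- replicate 2 allows up to 3 reads, or 3.72 normalized counts. The ratio of means was 6.67-fold in favour of Etv3+/+, and the log2 fold change of -3.39 (SE 1.55, limma adjusted p = 0.305) became -2.18 without Etv3-/- replicate 2.

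Il4i1 encodes a secreted amino acid oxidase that acts on phenylalanine and tryptophan and is named for its induction by IL-4. It lies on chromosome 7 (44816387 to 44840809). Its normalized counts were low, at 89.3, 22.3 and 24.6 in Etv3-/- replicates 1, 2 and 3, against 42.9 and 26.5 in Etv3+/+ libraries. The groups overlapped, and Etv3-/- replicate 1 alone was high. The log2 fold change of 0.12 (95% interval -2.18 to 2.42, limma adjusted p = 0.966) became -0.51 without that library. In GENCODE M21, 83.9% of the exonic bases of Il4i1 also lie in exons of Tbc1d17 on the opposite strand and 2.38% in Nup62 on the same strand. Nup62 had 30729 to 37571 normalized counts in Etv3-/- and 18006 and 24299 in Etv3+/+ libraries, and the library kit does not keep the strand of a transcript. Reads of Il4i1 and Tbc1d17 over shared exons cannot be told apart, so the Il4i1 level is uncertain.

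Kmo encodes the mitochondrial enzyme that hydroxylates kynurenine. The gene lies on the plus strand of chromosome 1 (175620381 to 175662116). It had 902, 1333 and 1650 normalized counts in Etv3-/- replicates 1, 2 and 3, against 136 and 0 in Etv3+/+ replicates 1 and 2. Every Etv3-/- library was several-fold above Etv3+/+ replicate 1, and Etv3+/+ replicate 2 had no read although it was the deepest library. The reads numbered 839, 1076 and 1882 in Etv3-/-, against 146 and 0 in Etv3+/+ libraries, where 0 allows up to 2.57 normalized counts. The mean was 1295 ± 375 (SD, n = 3) in Etv3-/- and 68.0 ± 96.2 (SD, n = 2) in Etv3+/+ cells, a 19.0-fold ratio.

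On the log2(normalized count + 1) scale the Kmo fold change was 6.75 (SE 1.72, 95% interval 2.75 to 10.7), with a limma unadjusted p of 0.00474 and an adjusted p of 0.116. The Etv3+/+ library at 0 sets this scale, and the value exceeds the ratio of means. edgeR gave 4.33 (adjusted p = 0.184) and DESeq2 4.30 (adjusted p = 0.249). Without Etv3+/+ replicate 1 the limma value was 10.3 (adjusted p = 0.00423), and without Etv3+/+ replicate 2 it was 3.20 (adjusted p = 0.0425). Each of these fits has a lone Etv3+/+ library that is assumed to vary like the others. Without the pair of libraries with the strongest GC trend, Etv3-/- replicate 3 and Etv3+/+ replicate 2, the value was 3.00 (limma adjusted p = 0.0899). Over all 19 other settings the adjusted p ranged from 0.00423 to 0.308.

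Kmo is known as a macrophage and microglial gene, and some markers of macrophages and monocytes moved with it. Of 15 such markers 3 rose, the complement genes C1qa, C1qb and C1qc (limma, adjusted p under 0.05), where 0.876% of all tested genes did. The number that fell was 0, and the median log2 fold change was 1.18. At an unadjusted p under 0.05, 9 were higher and 0 lower, where 8.02% and 9.93% of all genes were. DESeq2 called 8 higher and 0 lower, where it called 4.66% and 3.94% of all genes. Values of 9 were higher without overlap, where 16.7% of all tested genes were. The marker lists were chosen with earlier results of these data known, so these counts are no independent test. Ly6c2, Apoe, Ccr2 and Mrc1 had log2 fold changes of -0.64, -0.40, -0.21 and -0.02, none of which passed. The summed level of the 15 was 59490 to 79716 normalized counts in Etv3-/- and 38490 and 38679 in Etv3+/+ libraries, of which Lyz2 alone made 32616 to 46159 in Etv3-/- and 23333 and 24189 in Etv3+/+ libraries. None of the 15 was at 0 in every library, and Fcgr1 was at 21.5, 0 and 30.7 in Etv3-/- and at 0 in both Etv3+/+ libraries. C1qc, a complement subunit, had 1895 to 2355 normalized counts in Etv3-/- libraries, against 281 and 416 in Etv3+/+ libraries. The C1q calls were each lost in 6 to 9 of 19 other settings. Markers of cDC2 summed to 93466 to 115384 in Etv3-/- and 21518 and 24037 in Etv3+/+ libraries. Mgl2 alone made 67676 to 82946 in Etv3-/- and 3436 and 6138 in Etv3+/+ libraries. Of 6 tested, 2 rose, the lectin genes Clec10a and Mgl2, while 0 fell (limma, adjusted p under 0.05), where 0.876% and 0.319% of all tested genes did. Irf4 and Klf4 had log2 fold changes of -0.47 and 0.18, and neither passed. Markers of the sorted dendritic cells summed to 2129989 to 2897059 in Etv3-/- and 921764 and 1308502 in Etv3+/+ libraries. Cd74 alone made 741848 to 1064652 in Etv3-/- and 416476 and 637781 in Etv3+/+ libraries. Of these 10 markers 1, Ciita, rose while 0 fell, where 0.876% and 0.319% of all tested genes did. Their median log2 fold change was 0.98. Flt3 and Irf4 were at 0.02 and -0.47. The part of any of these cells in the Kmo and Haao differences was not tested. In GENCODE M21 the gene body of Kmo overlaps Fh1 on the opposite strand, with no shared exonic base.

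Kynu encodes kynureninase, which competes with KMO for kynurenine and also takes the product of KMO. It lies on chromosome 2 (43555329 to 43682715). Per kilobase of annotated exon it was the second most abundant member in both genotypes, an order that depends on the length used. Kynu had 3774, 5433 and 6542 normalized counts in Etv3-/- replicates 1, 2 and 3, against 4694 and 5903 in Etv3+/+ libraries. The Etv3+/+ values lay inside the Etv3-/- range. Its log2 fold change was -0.04, with a 95% interval of -0.68 to 0.60 and a limma adjusted p of 0.957, while a fit corrected for the GC content and length of genes gave 0.49 (limma adjusted p = 0.493).

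The balance of Kynu and Kmo was nearly the same in the 3 Etv3-/- libraries. The log2 ratio of Kynu to Kmo within a library was 2.06, 2.03 and 1.99 in Etv3-/- replicates 1, 2 and 3, against 5.10 and 12.5 in Etv3+/+ replicates 1 and 2, each from normalized counts plus 1. The value of 12.5 is set by that added count, since Kmo was at 0 there, and at the limit of 3 reads the ratio would be at least 11.2. The groups did not overlap, with a two-sided exact permutation p of 0.1, the smallest that 10 splits allow (adjusted p = 0.333 over 5 ratios). The difference of -6.79 became -3.07 without the library at 0, where the exact permutation p of 0.25 is the smallest possible. The log2 ratio of Ido1 to Il4i1 was 0.79, 2.89 and 1.51 in Etv3-/- libraries, against 2.85 and 3.56 in Etv3+/+ libraries, which overlap (exact permutation p = 0.3, adjusted p = 0.375). The Il4i1 level is uncertain because of its shared exons, and so is this ratio.

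**Figure D2:**
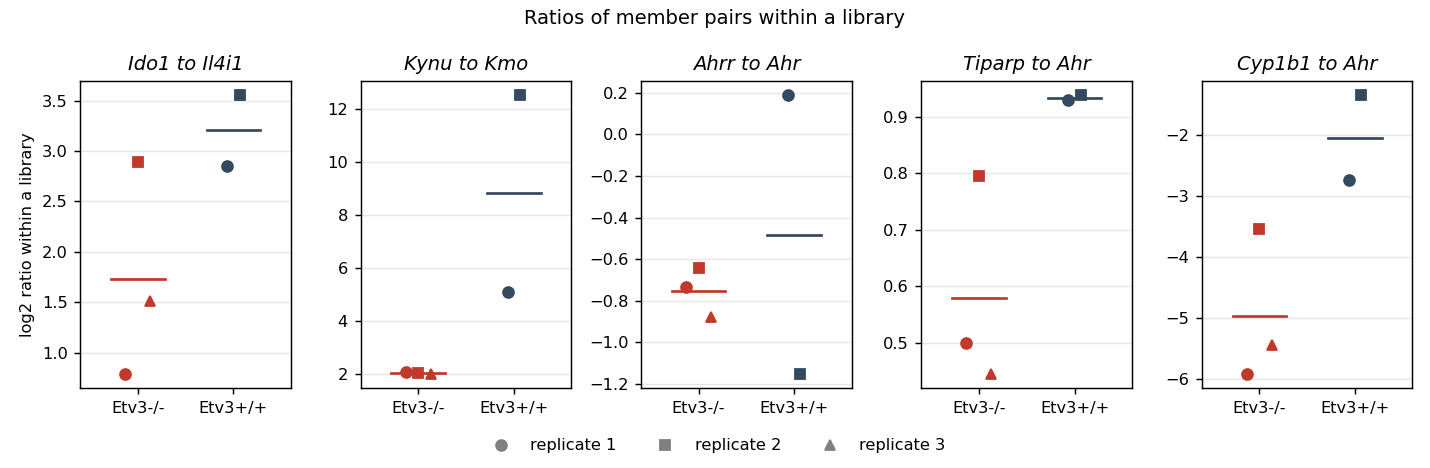
Log2 ratios of 5 pairs of members within each library, with Etv3-/- libraries in red, Etv3+/+ libraries in dark grey, a bar at each group mean and a separate vertical scale in each panel. Kynu to Kmo lies at 1.99 to 2.06 in Etv3-/- libraries, against 5.10 and 12.5 in Etv3+/+ libraries, the higher of which has Kmo at 0 and rests on the count of 1 added to every value, and Ahrr to Ahr overlaps between genotypes.

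Among the other enzymes of the kynurenine route, Haao rose. Of 10 such genes 7 were tested, 1 rose and 0 fell, where 0.876% of all tested genes rose and 0.319% fell, and the median log2 fold change was 0.66. Haao (chromosome 17, 83831156 to 83847963) had 18791, 17043 and 17776 normalized counts in Etv3-/- replicates 1, 2 and 3, against 7465 and 7298 in Etv3+/+ libraries. Spread within each genotype was small beside the distance between them. The mean was 17870 ± 878 (SD, n = 3) in Etv3-/- and 7382 ± 118 (SD, n = 2) in Etv3+/+ cells, a 2.42-fold ratio with a log2 fold change of 1.27 (SE 0.18, limma adjusted p = 0.0267). edgeR (adjusted p = 0.0355) and DESeq2 (adjusted p = 2.14e-10) called it too. The call was lost in 8 of 19 other settings, among them the omission of any 1 of the 5 libraries (adjusted p = 0.082 to 0.143), while the log2 fold change kept its sign in the 19 settings and reached at most 1.36.

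Afmid, the formamidase gene named here after its values were seen, had 725, 592 and 648 normalized counts in Etv3-/- libraries, against 187 and 255 in Etv3+/+ libraries. The groups did not overlap, with a log2 fold change of 1.57 (limma adjusted p = 0.0997, edgeR adjusted p = 0.0968, DESeq2 adjusted p = 0.00223). Exons of another gene on the same strand share 44.2% of its exonic bases. Values did not overlap for 4 of the 7 tested enzymes, Haao, Afmid, Got2 and Kyat1, all higher in Etv3-/-, where 16.7% of all tested genes were higher without overlap. Tdo2, the liver enzyme for the same first step as IDO1, had 0, 26.0 and 0 normalized counts in Etv3-/- libraries and 0 in both Etv3+/+ libraries. Aadat and Acmsd had no read in any library, and Qprt, which makes the NAD precursor, reached at most 26.3 in Etv3-/- and 11.1 in Etv3+/+ libraries.

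**Figure D3:**
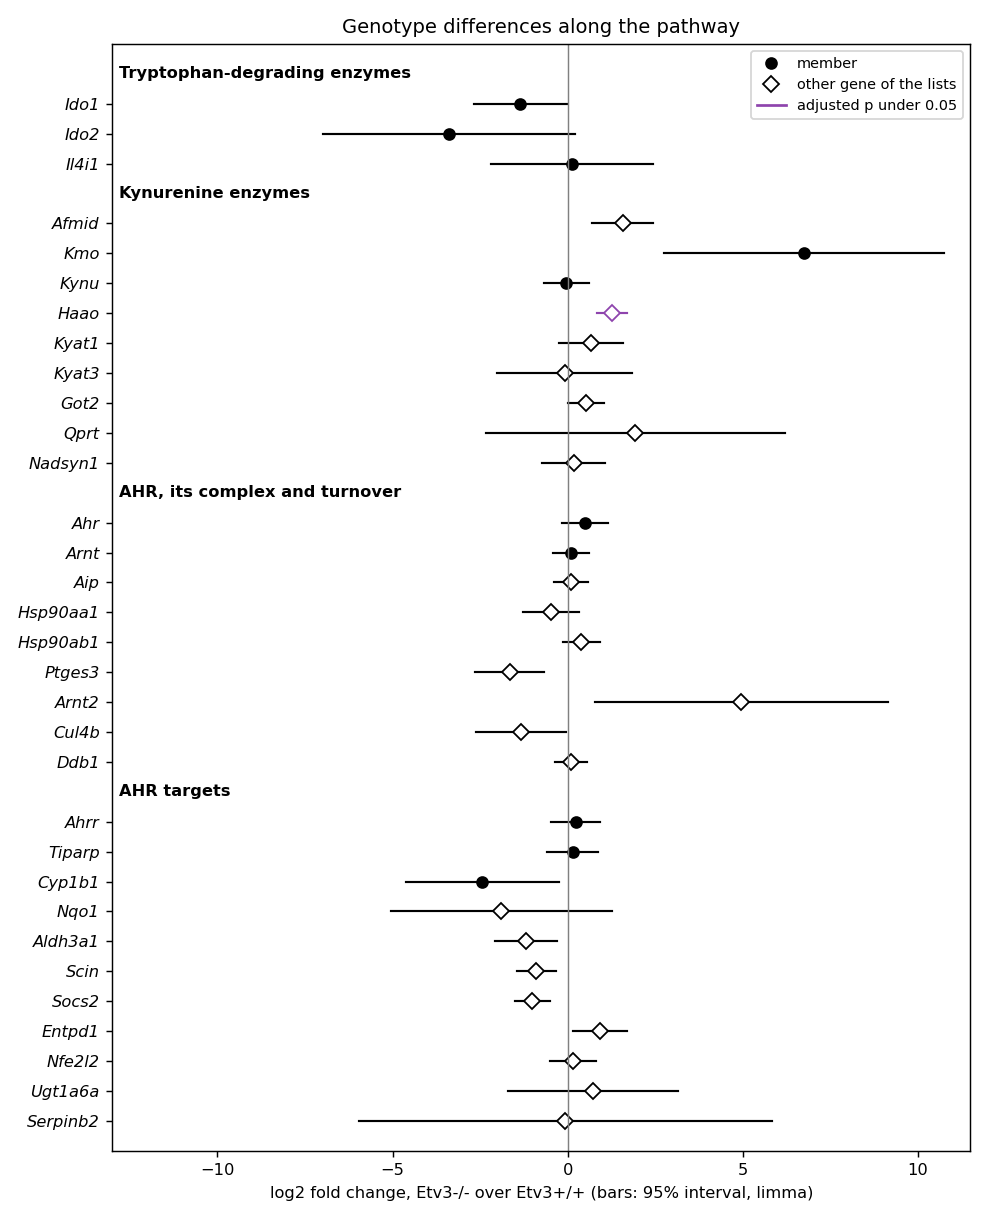
Log2 fold changes of Etv3-/- over Etv3+/+ cells from limma with 95% intervals, for the 10 members as filled circles and the other tested genes of the kynurenine, AHR complex and AHR target lists as open diamonds. Haao, in purple, has an adjusted p under 0.05, and the intervals of Kmo, Ido2 and Arnt2 are wide because libraries at or near 0 enter them.

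Transcripts that bring tryptophan to the enzymes or compete for it gave no call. On the tryptophan supply list 0 of 6 genes passed in either direction, with a median log2 fold change of -0.02, and edgeR and DESeq2 also called 0. In limma 0 were higher and 1 lower at an unadjusted p under 0.05, where 8.02% and 9.93% of all tested genes were. Slc3a2, the heavy chain of the large amino acid transporter, had 8879, 9220 and 12215 normalized counts in Etv3-/- libraries, against 11743 and 8393 in Etv3+/+ libraries. Wars, which charges tRNA with tryptophan, had 5944, 7989 and 9378 in Etv3-/- libraries, against 9698 and 6485 in Etv3+/+ libraries. Both genes overlapped between genotypes.

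Regulators and effectors of IDO1 also gave no call, with 0 of 18 genes past the limma threshold. At an unadjusted p under 0.05 in limma, 3 were higher and 3 lower, where 8.02% and 9.93% of all tested genes were. The median log2 fold change was 0.04, and edgeR called 0. DESeq2 called 2 higher and 1 lower, where it called 4.66% and 3.94% of all genes. Jak2, a kinase of the interferon gamma receptor, had 93721, 112847 and 81630 normalized counts in Etv3-/- libraries, against 133223 and 177463 in Etv3+/+ libraries (limma adjusted p = 0.244). Irf8, a transcription factor required for Ido1 in dendritic cells, had 88210, 82795 and 88595 in Etv3-/- libraries, against 124608 and 94969 in Etv3+/+ libraries (limma adjusted p = 0.505).

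Markers of cDC1, which are known to express Ido1, gave mixed values. Of 9 cDC1 markers 6 were tested, of which Wdfy4 and Naaa rose and 0 fell (limma, adjusted p under 0.05). Among all tested genes 0.876% rose and 0.319% fell. The median log2 fold change of the 6 was 0.50. The defining cDC1 marker Clec9a was at 0, 0 and 1.75 normalized counts in Etv3-/- and at 0 in both Etv3+/+ libraries, and Xcr1 was at 0 to 18.4 in Etv3-/- and 0 and 20.5 in Etv3+/+ libraries. The list summed to 115827 to 128037 in Etv3-/- and 109536 and 139038 in Etv3+/+ libraries, which overlap, and Irf8 made up most of each sum. Markers of T and NK cells, which a gate on CD11c and high MHC class II should largely remove, summed to 2780 to 6866 in Etv3-/- and 9393 and 9988 in Etv3+/+ libraries. Ncr1 was at 0 in every library, and 0 of 9 tested genes were called by limma, edgeR or DESeq2. In limma 0 were higher and 3 lower at an unadjusted p under 0.05, where 8.02% and 9.93% of all tested genes were. Of 15 mature dendritic cell markers 1, Il12b, fell and 0 rose (limma, adjusted p under 0.05), where 0.319% and 0.876% of all tested genes did. At an unadjusted p under 0.05, 6 were lower and 1 higher, where 9.93% and 8.02% of all tested genes were. DESeq2 called 4 lower and 1 higher, where it called 3.94% and 4.66% of all genes. Values of 6 were lower and of 3 higher without overlap, where 19.3% and 16.7% of all tested genes were. The list summed to 1113977 to 1449537 in Etv3-/- and 1221150 and 1242763 in Etv3+/+ libraries. The part of these cells in the Ido1 and Ido2 values was not tested.

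Ahr, the receptor gene on chromosome 12 (35497974 to 35535038), had 2872, 3058 and 2365 normalized counts in Etv3-/- replicates 1, 2 and 3, against 1505 and 2531 in Etv3+/+ libraries. Etv3+/+ replicate 1 was below the other 4 libraries, and Etv3+/+ replicate 2 lay within the Etv3-/- range. The log2 fold change in limma was 0.49, with a 95% interval of -0.17 to 1.16 and an adjusted p of 0.409, and it was 0.87 without Etv3+/+ replicate 2, 0.12 without Etv3+/+ replicate 1 and 0.98 without both Etv3-/- replicate 3 and Etv3+/+ replicate 2.

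Arnt, the partner that AHR shares with hypoxia factors, lies on chromosome 3 (95434388 to 95497240). It had 2346, 2027 and 2142 normalized counts in Etv3-/- libraries, against 2085 and 1965 in Etv3+/+ libraries. The groups overlapped, with a log2 fold change of 0.10 (95% interval -0.41 to 0.61, limma adjusted p = 0.854). Arnt and Tiparp are on the chromosome of Etv3, at 7.89 and 22 Mb from it.

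Of the AHR targets among the members, Cyp1b1 was the one with a lower mean in Etv3-/- cells. Cyp1b1, a cytochrome P450 gene that AHR induces (chromosome 17, 79701537 to 79715061, minus strand), had 46.2, 260 and 53.5 normalized counts in Etv3-/- replicates 1, 2 and 3, against 225 and 997 in Etv3+/+ libraries. Etv3-/- replicate 2 exceeded Etv3+/+ replicate 1, so the groups overlapped, and both genotypes spread several-fold. The mean was 120 ± 121 (SD, n = 3) in Etv3-/- and 611 ± 546 (SD, n = 2) in Etv3+/+ cells. The log2 fold change was -2.44 (SE 0.94, limma unadjusted p = 0.0333, adjusted p = 0.238), and it was -1.37 without Etv3+/+ replicate 2, -3.51 without Etv3+/+ replicate 1 and -1.02 without both Etv3-/- replicate 3 and Etv3+/+ replicate 2.

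Ahrr, which encodes a repressor that takes the place of AHR beside ARNT, had 1728, 1960 and 1284 normalized counts in Etv3-/- libraries, against 1717 and 1137 in Etv3+/+ libraries. The ranges overlapped in part, with a log2 fold change of 0.22 (95% interval -0.49 to 0.93, limma adjusted p = 0.744). The fold change was 0.59 with the correction for GC content and length (limma adjusted p = 0.340). The gene lies on chromosome 13 (74211118 to 74292331, minus strand), and its promoter with 3 AHR cores is printed above.

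Tiparp encodes an ADP-ribosyltransferase that limits AHR signalling and lies on chromosome 3 (65528410 to 65555518), with 5.12% of its exonic bases shared with a pseudogene on the opposite strand. It had 4060, 5304 and 3217 normalized counts in Etv3-/- libraries, against 2867 and 4853 in Etv3+/+ libraries. Per kilobase of annotated exon it was the most abundant member in both genotypes, an order that depends on the length used. Its values overlapped between genotypes (log2 fold change 0.14, 95% interval -0.58 to 0.86, limma adjusted p = 0.854). The log2 fold change was 0.71 with the correction for GC content and length (limma adjusted p = 0.0722), and 0.69 without both Etv3-/- replicate 3 and Etv3+/+ replicate 2 (limma adjusted p = 0.328).

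Set against Ahr in the same library, both Cyp1b1 and Tiparp were lower in all Etv3-/- libraries. The log2 ratio of Cyp1b1 to Ahr was -5.93, -3.55 and -5.44 in Etv3-/- libraries, against -2.74 and -1.34 in Etv3+/+ libraries. The difference of -2.93 had an exact permutation p of 0.2 (adjusted p = 0.333). The log2 ratio of Tiparp to Ahr was 0.50, 0.79 and 0.44 in Etv3-/- libraries, against 0.93 and 0.94 in Etv3+/+ libraries, with an exact permutation p of 0.2 (adjusted p = 0.333). For Ahrr to Ahr the ratios were -0.73, -0.64 and -0.88 in Etv3-/- libraries and 0.19 and -1.15 in Etv3+/+ libraries (exact permutation p = 0.8, adjusted p = 0.8). None of the 5 ratios could reach a p below 0.1 in this design.

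Other AHR target genes gave no limma call. Of 12 genes 8 were tested, and 0 passed in limma or edgeR. In limma 4 had an unadjusted p under 0.05, 1 higher and 3 lower, where 8.02% and 9.93% of all tested genes were. DESeq2 called 0 higher and 2 lower, where it called 4.66% and 3.94% of all genes. The median log2 fold change was -0.48. Cyp1a1, the most responsive AHR target in many tissues, had 22.6, 0 and 0 normalized counts in Etv3-/- and 0 in both Etv3+/+ libraries. Cyp1a2 reached at most 0.88 in Etv3-/- and was at 0 in both Etv3+/+ libraries, and Il22 and Gsta1 had no read in any library. Socs2, an inhibitor of cytokine signalling, had 24699, 26572 and 22047 in Etv3-/- libraries, against 43336 and 55405 in Etv3+/+ libraries (log2 fold change -1.01, limma adjusted p = 0.0761, DESeq2 adjusted p = 0.000373). It is also on the list of mature dendritic cell markers. Scin, an actin-severing protein, had 6769, 8948 and 10462 in Etv3-/- libraries, against 17160 and 14915 in Etv3+/+ libraries (log2 fold change -0.90, limma adjusted p = 0.121, DESeq2 adjusted p = 0.0174).

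For the cytoplasmic AHR complex and its turnover, 0 of 7 genes passed in limma or edgeR. In limma 3 had an unadjusted p under 0.05, 1 higher and 2 lower, where 8.02% and 9.93% of all tested genes were. The median log2 fold change was 0.09. DESeq2 called Arnt2 higher (adjusted p = 0.00407) and Ptges3 lower (adjusted p = 0.00713), where it called 4.66% and 3.94% of all genes. Both were named after their values were seen. Ptges3 had 6284, 6782 and 2488 normalized counts in Etv3-/- libraries, against 13009 and 17178 in Etv3+/+ libraries (limma adjusted p = 0.116). Arnt2 had 7.53, 209 and 15.8 in Etv3-/- and 0 in both Etv3+/+ libraries (limma adjusted p = 0.216). Hsp90ab1, a chaperone that holds AHR in the cytoplasm, had 78367, 73517 and 91906 normalized counts in Etv3-/- libraries, against 59662 and 63979 in Etv3+/+ libraries (limma adjusted p = 0.414). Ddb1, part of the ubiquitin ligase in which AHR can act, had 20513, 21789 and 21995 in Etv3-/- libraries, against 22423 and 17933 in Etv3+/+ libraries (limma adjusted p = 0.845).

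Levels between members were compared per kilobase of annotated exon, taken over all transcripts of a gene. That length was 6149 bases for Kynu and 4358 for Tiparp, against 2778 and 4191 in their longest transcripts. The order of members, that of Tiparp and Kynu included, therefore depends on the length used. In Etv3-/- cells the order was Tiparp at 962, Kynu at 854, Ahr at 449, Kmo at 274, Arnt at 271, Ahrr at 176, Ido1 at 72.9, Cyp1b1 at 20.5, Il4i1 at 11.1 and Ido2 at 2.32 mean normalized counts per kilobase. In Etv3+/+ cells it was Tiparp at 886, Kynu at 862, Ahr at 327, Arnt at 253, Ido1 at 175, Ahrr at 151, Cyp1b1 at 105, Ido2 at 15.5, Kmo at 14.4 and Il4i1 at 8.50. Kmo ranked 4 of 10 in Etv3-/- cells and 9 of 10 in Etv3+/+ cells. The place of Il4i1 is uncertain, since most of its exonic bases are shared with Tbc1d17. Neighbours whose library ranges overlapped were Tiparp and Kynu, Kmo and Arnt, Ido1 and Cyp1b1, and Cyp1b1 and Il4i1 in Etv3-/- cells. In Etv3+/+ cells they were Tiparp and Kynu, Ahr and Arnt, Ido1 and Ahrr, Ahrr and Cyp1b1, Ido2 and Kmo, and Kmo and Il4i1.

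**Figure D4:**
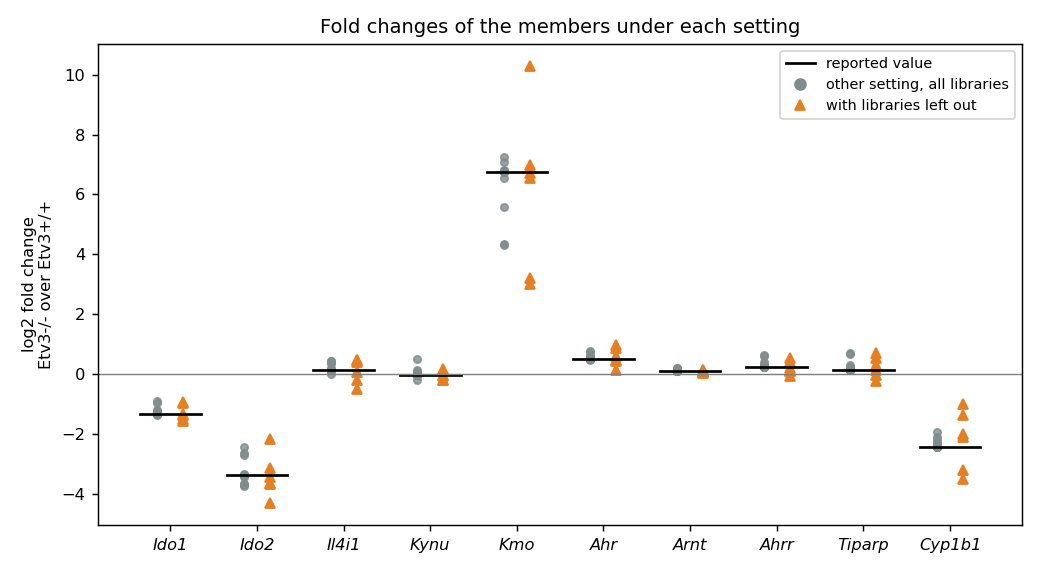
Log2 fold changes of the members, Etv3-/- over Etv3+/+, as reported (black bars), under other settings with all libraries (grey circles) and with 1 or 2 libraries left out (orange triangles). Kmo stays between 3.00 and 10.3, Ido1 between -1.59 and -0.90, Ido2 between -4.32 and -2.18 and Cyp1b1 between -3.51 and -1.02, while Kynu, Il4i1, Ahrr and Tiparp lie on both sides of 0.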

How the data were processed

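Per the labels' protocols, each library was prepared by SMART-Seq HT, a kit for low input, from at most 60000 cells sorted to a purity above 95%. The authors deposited a signal, in which every gene count was divided by one factor for its library. DESeq2 1.26.0, Subread 1.6.3, STAR 2.7.3a, Trimmomatic 0.36, featureCounts and build mm10 are listed in the submitters' processing notes, without order. Neither annotation nor strand setting is stated there.

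Dividing each library's values by their common step gave whole reads, with 100% of values less than 0.1 from an integer. A library with 0 reads was given a limit of 3 reads, and this limit covers counting error alone. Genes with 10 or more normalized counts in at least 2 libraries were tested with limma 3.58.1 in R 4.3.3 (lmFit, eBayes with trend) on log2(normalized count + 1), two-sided, with Benjamini-Hochberg adjustment over all 13813 tested genes and a threshold of 0.05. A pseudocount understates changes of low genes. For Kmo and Ido2, each with 1 library at 0, the limma log2 value was nevertheless larger in size than that of edgeR and DESeq2. For Arnt2, at 0 in both Etv3+/+ libraries, it was smaller, at 4.96 against 9.31 in edgeR and 8.90 in DESeq2. Ratios of members were tested by exact permutation over 10 splits. edgeR 4.0.16 and DESeq2 1.42.0 ran on recovered reads and called 158 and 1188 genes, and the fits were tested on simulated data. Positions, exon lengths and GC content came from GENCODE M21 (GRCm38, the assembly of mm10), matched by symbol for 10 of 10 members and 98.5% of tested genes. Members and lists were chosen with earlier results of these data known. Besides members, the text names the called genes of each pathway list, up to 4 by fold change, or else the 2 with the highest mean, and markers given as values. Afmid, Arnt2 and Ptges3 were named after their values were seen. Figures were drawn with matplotlib 3.10.9.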

Additional observations from a re-analysis of the deposited data

How the results depend on the processing

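Under 19 other settings the members called stayed at 0 of 10, except without Etv3+/+ replicate 1 or 2, where Kmo alone was called, a range of 0 to 1 over the single-library omissions. Among all genes 121 were higher and 44 lower. limma with trend=FALSE gave 44 higher, and a pseudocount of 5 gave 70 lower. DESeq2 gave 644 and 544, the GC and length correction 235 and 90, and that correction with the replicate block 36 and 10. Leaving out both libraries with the strongest GC trend gave 6 and 1. Single-library omissions gave 0 to 73 higher and 0 to 7 lower, with 1885 genes at an unadjusted p under 0.05 where limma called 0. The share of higher among calls was 47.3% with trend=FALSE, 54.2% with DESeq2 and 56.1% with the block, against 73.3%. The cause was not tested. The omission of both libraries and the block with the correction were chosen after seeing the data.

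The replicate block gave 151 higher and 118 lower and called no member. Libraries of the same number share only that number: deviations from the group means correlated at -0.03 and 0.04 for numbers 1 and 2. Etv3-/- replicate 3 has no partner and does not enter the blocked difference. Ido2 and Il4i1 were not tested with a filter of 50.

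Ido1, Ido2, Kmo, Ahr, Arnt and Cyp1b1 kept their sign. The Kynu fold change was 0.0201 with TMM, 0.0154 with DESeq2, 0.041 with quantile scaling, 0.0497 with edgeR, 0.49 with the GC and length correction, 0.11 with that correction and the block, and -0.22 to 0.18 in single-library omissions. In those omissions Il4i1 lay at -0.51 to 0.47, Ahrr at -0.0726 to 0.52, Tiparp at -0.24 to 0.52, Ddc at -0.0335 to 2.42, Ddb1 at -0.0659 to 0.26, Hif1a at -0.0132 to 0.81, Slc3a2 at -0.23 to 0.25 and Wars at -0.34 to 0.24. The Ahrr to Ahr difference lay at -0.94 to 0.40 there. Slc3a2 was at -0.13 with the block, -0.11 with the correction, -0.21 with both and -0.38 without both libraries of strongest GC trend, where Ddb1 was at -0.0849. Wars was at 0.0058 with TMM, 0.0079 with edgeR and 0.0199 with quantile scaling. Ido2 and Il4i1 had few reads, which limits what can be said of either. For Il4i1, reads over exons shared with Tbc1d17 also cannot be told apart, so its count is uncertain at any depth.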

Other observations

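Of 7 genes for serotonin, melatonin and amine synthesis or breakdown, 2 were tested, and 0 passed in limma, edgeR or DESeq2. In limma 0 were higher and 1 lower at an unadjusted p under 0.05, where 8.02% and 9.93% of all tested genes were. Tph1, which starts serotonin synthesis in peripheral tissue, had no read in any library. Maoa, which degrades amines, had 290, 105 and 266 normalized counts in Etv3-/- libraries, against 511 and 679 in Etv3+/+ libraries (log2 fold change -1.54, limma adjusted p = 0.211). Ddc, the decarboxylase, had 52.7, 111 and 21.0 in Etv3-/- libraries, against 51.3 and 8.56 in Etv3+/+ libraries.

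Of 8 other partners of ARNT 3 were tested, and 0 passed in limma, edgeR or DESeq2 or at an unadjusted p under 0.05. Hif1a, the hypoxia factor, had 11540, 12124 and 8530 normalized counts in Etv3-/- libraries, against 6065 and 10704 in Etv3+/+ libraries. With the GC and length correction, limma called it higher (adjusted p = 0.0288). Epas1, its relative, had 32.3, 109 and 67.5 in Etv3-/- libraries, against 112 and 155 in Etv3+/+ libraries. Among 7 genes of the IL-4 receptor and STAT6 pathway, through which Il4i1 is known to be induced, 0 passed in limma, edgeR or DESeq2 or at an unadjusted p under 0.05, with a median log2 fold change of 0.09. Il4ra, the receptor chain, had 42099, 36402 and 40954 in Etv3-/- libraries, against 34520 and 28401 in Etv3+/+ libraries, and Stat6 had 37510, 37495 and 39035 in Etv3-/- libraries, against 36255 and 31740 in Etv3+/+ libraries. Markers of B cells summed to 3386 to 5240 in Etv3-/- and 1682 and 2235 in Etv3+/+ libraries, with 0 of 7 called by limma or edgeR. DESeq2 called 3 higher and 0 lower, where it called 4.66% and 3.94% of all genes. In limma, 4 were higher and 0 lower at an unadjusted p under 0.05, where 8.02% and 9.93% of all tested genes were. Values of 4 were higher and of 0 lower without overlap, where 16.7% and 19.3% of all tested genes were. Ms4a1 and Ebf1 had log2 fold changes of -1.01 and -1.37, and neither passed. Markers of neutrophils summed to 12360 to 69948 in Etv3-/- and 44579 and 52264 in Etv3+/+ libraries, with 0 of 10 called by limma, edgeR or DESeq2 and 0 at an unadjusted p under 0.05.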
